A study of Mus musculus with 70 samples.

Results

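miR-511 is a microRNA (miRNA) whose hairpin lies within an intron of Mrc1, the gene for the macrophage mannose receptor. It gives rise to a pair of mature arms, mmu-miR-511-3p and mmu-miR-511-5p (written here without the species prefix), each of which had 1 row in the miRNA count table. These 2 members were taken by name out of 1882 distinct features, of which 1823 are annotated miRNAs and the others are candidates predicted by the authors. Small RNA libraries were made from whole brains of wild-type, untreated C57BL/6 mice of both sexes of 3 ages, namely 6 days (P6) and 15 days (P15) after birth and 8 weeks. From each brain, CD45+ cells captured by immunopanning were sequenced as microglia and the CD45- cells that remained as bulk CNS cells, so that the fractions are paired within a mouse and replicates are separate mice. The analysed set held 68 libraries of 34 mice, with 10 mice at P6 (4 female and 6 male), 12 at P15 and 12 at 8 weeks (6 of each sex). The remaining P6 female, mouse 6, was set aside because the study removed 1 mouse as an outlier, and its source data point to this one. Its values are given where they bear on a result.

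MiRNAs are cut from a hairpin by Drosha and Dicer, and 1 arm or the other is then loaded into an Argonaute protein, where the seed near the 5' end pairs with target mRNAs. An intronic miRNA on the strand of its host gene can be made from the host's own transcript. Mrc1 encodes CD206, an endocytic lectin that marks macrophages at the borders of the brain and many other tissue macrophages, and miR-511-3p has mostly been studied in macrophages that express Mrc1. CD45 is carried by macrophages and blood leukocytes as well as by microglia, so panning does not separate these cells. The study estimated the share of such cells from mRNA of its microglial samples, which was not used here, and the miRNA counts do not give it.

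The Mir511 hairpin spans chr2:14261003-14261081 on the plus strand of GRCm38, the build used by the authors. In the GENCODE M21 annotation, Mrc1 spans chr2:14229392-14332057 on the same strand. The hairpin lies in the intron between exons 5 and 6 of the 30-exon transcript Mrc1-201. This intron is 4071 bases long, and the hairpin begins 3885 bases after exon 5 and ends 107 bases before exon 6. Sequences are from RefSeq (GRCm38.p6), where 1 of the 2 members had a mature entry, the 3p arm at chr2:14261051-14261072. The mature 3p arm is shown with its seed (bases 2 to 8) in capitals, and the hairpin with the 3p arm in capitals, because the measured rows are counts of reads from these stretches.
miR-511-3p: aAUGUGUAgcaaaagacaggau
mir-511 hairpin: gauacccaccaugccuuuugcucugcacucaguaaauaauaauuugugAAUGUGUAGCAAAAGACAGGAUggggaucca

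No other mature miRNA of the RefSeq table shared bases 2 to 8 with miR-511-3p. A looser match, bases 2 to 7, was shared by miR-1187 and miR-1198-5p, which were added after the table was searched. They are printed with their own bases 2 to 8 in capitals because they are the nearest relatives of the 3p arm by seed.
miR-1187: uAUGUGUGuguguauguguguaa
miR-1198-5p: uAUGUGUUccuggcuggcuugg
Both were low in the 34 microglial libraries, where the mean level was 1.62 CPM (counts per 1000000 counts of the library) for miR-1187 and 22.3 CPM for miR-1198-5p, against 134 CPM for miR-511-3p.

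Results below set miR-511-3p against miR-223-3p and miR-142a-3p, miRNAs of the blood and myeloid lineages, whose seeds differ from that of miR-511-3p and from each other.
miR-223-3p: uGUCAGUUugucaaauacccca
miR-142a-3p: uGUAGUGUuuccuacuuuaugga
They lie at chrX:96242884-96242905 and chr11:87756903-87756925, both on the plus strand of GRCm38.p6. A further comparator was miR-6983-3p.

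Total counts ranged from 1678034 to 5982922 in microglial libraries and from 2795957 to 8747394 in bulk libraries, and P6 microglia were the shallowest group. A floor of 3 counts corresponded to 0.343 to 1.79 CPM. Intervals and floors cover counting error only, because these reads carried no molecular identifiers and may repeat the same molecule. With the ages pooled, all 4 myeloid and all 4 erythroid marker miRNAs were higher in microglia than in bulk cells, where 23.3% of features were called higher, and all 5 neuronal, 3 oligodendrocyte and 2 endothelial markers were lower (limma TREAT), against 21.8% of features called lower. Of the 2 lymphocyte markers miR-150-5p was lower, at -1.76 ± 0.11 log2 units (SE, adjusted p = 2.56e-09, limma), and miR-155-5p, at 0.36 ± 0.07, did not pass. The study names miR-155 as a regulator of activated microglia, so this list is not specific to lymphocytes. None of the 4 mural and fibroblast markers passed in either direction, and their median difference was -0.38. Within each age the same markers were called in the same direction, with 2 exceptions. At P6 miR-338-3p, an oligodendrocyte marker, did not pass, at -1.11 ± 0.13, and at 8 weeks miR-155-5p was higher in microglia, at 1.79 ± 0.13 (SE, adjusted p = 1.25e-07, limma). Among all features, 10.6% were called lower in microglia at P6, 18.7% at P15 and 23.7% at 8 weeks. Neuronal markers were not absent from microglial libraries, where their summed level had medians of 26060 CPM at P6, 24716 CPM at P15 and 22501 CPM at 8 weeks. Erythroid markers had summed medians in microglial libraries of 15215 CPM at P6, 45465 CPM at P15 and 23959 CPM at 8 weeks. No marker of these lists was at 0 in every library. Their part in the results on miR-511 was not tested.

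Both arms of miR-511 were found almost entirely in the microglial fraction. In P6 microglia, miR-511-3p ranged from 135 to 308 CPM with a median of 164 CPM. In P15 microglia it ranged from 71.9 to 264 CPM with a median of 175 CPM. In 8-week microglia it ranged from 37.0 to 68.4 CPM with a median of 48.1 CPM. In CPM the adult libraries thus formed a low, narrow band below every P6 and P15 library, whereas P6 and P15 libraries overlapped over most of their range. The mean level was 190 ± 65.4 CPM (SD, n = 10) at P6, 170 ± 54.1 CPM (SD, n = 12) at P15 and 49.9 ± 10.3 CPM (SD, n = 12) at 8 weeks. Ordered by mean CPM among the 1072 features tested, the 3p arm stood at rank 191 in P6 microglia, 193 in P15 microglia and 272 in 8-week microglia. Summing all entries of a miRNA that is listed more than once, in place of keeping the largest, raises the library totals, and the mean level was then 111 CPM at P6, 108 CPM at P15 and 31.5 CPM at 8 weeks.

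The 5p arm was lower than the 3p arm in each of the 34 microglial libraries. It ranged from 11.6 to 32.1 CPM at P6 (median 21.1 CPM), from 10.7 to 29.8 CPM at P15 (median 18.5 CPM) and from 2.83 to 8.24 CPM at 8 weeks (median 5.95 CPM). As for the 3p arm, the highest 8-week library lay below the lowest library of either younger age. The mean level was 21.4 ± 7.09 CPM (SD, n = 10) at P6, 18.8 ± 6.25 CPM (SD, n = 12) at P15 and 5.92 ± 1.64 CPM (SD, n = 12) at 8 weeks. These levels rest on few reads, with between 12 and 138 counts of the 5p arm per microglial library. With the entries of a name summed, the mean 5p level was 12.5 CPM at P6, 11.9 CPM at P15 and 3.74 CPM at 8 weeks.

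**Figure D1:**
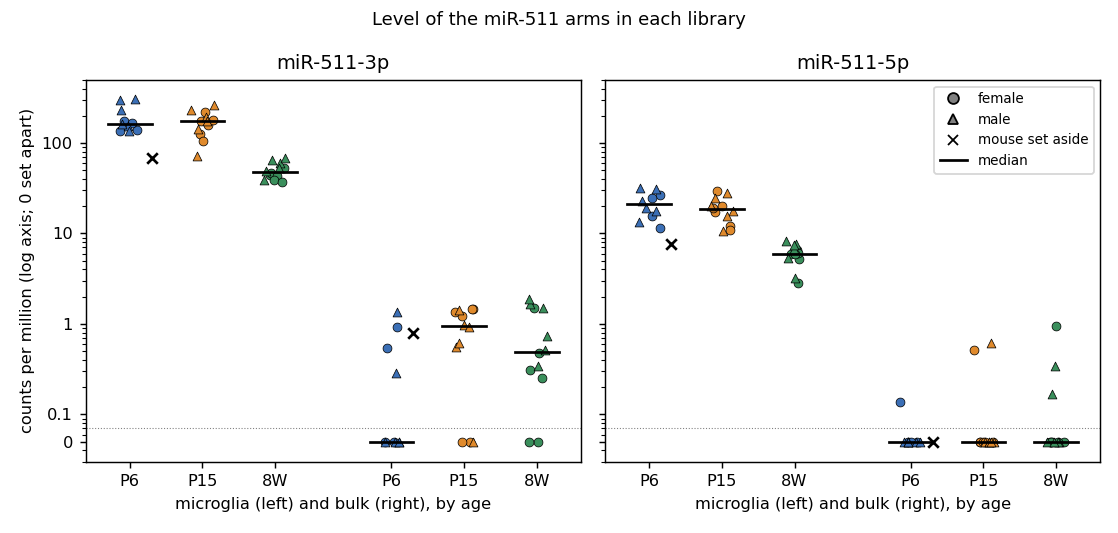
Level of miR-511-3p (left panel) and miR-511-5p (right panel) in each library, in CPM on a log axis with libraries at 0 set apart at the bottom, for microglia and bulk cells at P6 (blue), P15 (orange) and 8 weeks (green). Circles are females, triangles males, bars medians and crosses the mouse set aside. The lowest microglial library, at 37.0 CPM for 3p, lies above the highest bulk library, at 1.91 CPM, and the 8-week microglia lie below the younger ones apart from the mouse set aside.

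In bulk cells the reads of both arms were close to the floor. For miR-511-3p, the 10 P6 bulk libraries held 23 counts in all, and 6 of them held none. The 12 P15 bulk libraries held 48 counts with 3 libraries at 0, and the 12 libraries of 8-week bulk cells held 43 counts with 2 at 0. The highest bulk library reached 1.34 CPM at P6, 1.48 CPM at P15 and 1.91 CPM at 8 weeks. The 5p arm gave 1 count in all P6 bulk libraries together, 5 counts at P15 and 7 counts at 8 weeks, and 28 of the 34 bulk libraries held none.

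The first question was how far the arms are enriched in microglia over bulk cells of the same brains. All 34 mice had a higher level in microglia for both arms, and the CPM ranges of the fractions did not overlap for either arm, as was the case for 4.66% of all features in this direction. The ratio of pooled CPM, microglia to bulk, was 583 for miR-511-3p at P6 (95% exact interval 388 to 920), 184 at P15 (138 to 249) and 68.1 at 8 weeks (50.4 to 94.3). These 3 intervals did not overlap, but they pool the libraries of an age and leave out the spread between mice. They therefore do not show by themselves that the ages differ. Each 3p ratio was also taken without the mouse holding the most bulk counts. It then became 826 (P6 male mouse 1, with 9 of the 23 counts), 201 (P15 female mouse 3) and 78.9 (8-week male mouse 1). For miR-511-5p the ratio was 196 at P15 (83.6 to 604) and 49.98 at 8 weeks (24.001 to 125), whereas at P6 a single bulk count gave a ratio of 1479 with an interval of 264 to 58499. The 5p ratios rest on few libraries. Without P15 female mouse 4, which held 3 of the 5 bulk counts, the P15 ratio was 409, and without female mouse 3 at 8 weeks, with 4 of the 7, the ratio there was 107.

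Counts of all 1072 features were fitted in one limma-voom model with TMM scaling, a mean for each of the 12 groups and mouse as a random effect. The test was TREAT, which asks whether a log2 fold change exceeds 1 in size, with Benjamini-Hochberg adjustment over all features. With the ages pooled, miR-511-3p was 8.09 ± 0.25 log2 units higher in microglia (SE, adjusted p = 1.29e-36, limma), the largest enrichment of the 1072 features in this fit. The 5p arm was higher by 6.72 ± 0.20 (SE, adjusted p = 2.08e-37, limma) and stood at rank 5. In this comparison 23.3% of features were called higher in microglia. Fitted values of features near 0 in bulk cells depend on the 0.5 counts that voom adds, and they are no bound on the true ratio. The ranks are those of the pooled ages. At 8 weeks the ratio of pooled CPM was 68.1 for miR-511-3p, 70.7 for miR-142a-3p, 135 for miR-223-3p and 182 for miR-6983-3p.

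Enrichment was past the threshold at each age and was smaller at 8 weeks than at P6. For miR-511-3p it was 9.79 ± 0.48 log2 units at P6, 8.06 ± 0.41 at P15 and 6.43 ± 0.41 at 8 weeks (SE). For miR-511-5p it came to 7.89 ± 0.36 at P6, 7.01 ± 0.32 at P15 and, at 8 weeks, 5.27 ± 0.33 (SE). At P6 17.4% of features were called higher in microglia, at P15 21.3% and at 8 weeks 21.2%. Enrichment at 8 weeks minus that at P6 came to -3.36 ± 0.63 for the 3p arm (SE, adjusted p = 0.00215, limma) and -2.62 ± 0.49 for the 5p arm (SE, adjusted p = 0.00771, limma), both past the threshold, in a comparison in which 7.93% of features were called lower. For the 5p arm the bulk side of this difference rested on 1 count at P6 and 7 at 8 weeks. The 9 bulk libraries without a 5p count at each of these ages entered the fit at the added 0.5 counts, with medians of -3.88 log2 CPM at P6 and -2.97 at 8 weeks, a gap set by depth and scaling alone. For the 3p arm 6 bulk libraries at P6 and 2 at 8 weeks were without a count. The steps between neighbouring ages were not past it: for the 3p arm they were -1.73 ± 0.63 from P6 to P15 and -1.63 ± 0.58 from P15 to 8 weeks (SE). For miR-223-3p the same change in enrichment from P6 to 8 weeks was -0.96 ± 0.22, for miR-142a-3p -0.69 ± 0.20 and for miR-6983-3p -0.63 ± 0.61 (SE), none of them past the threshold. Whether these differ from that of miR-511-3p was not tested in the fit.

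**Figure D2:**
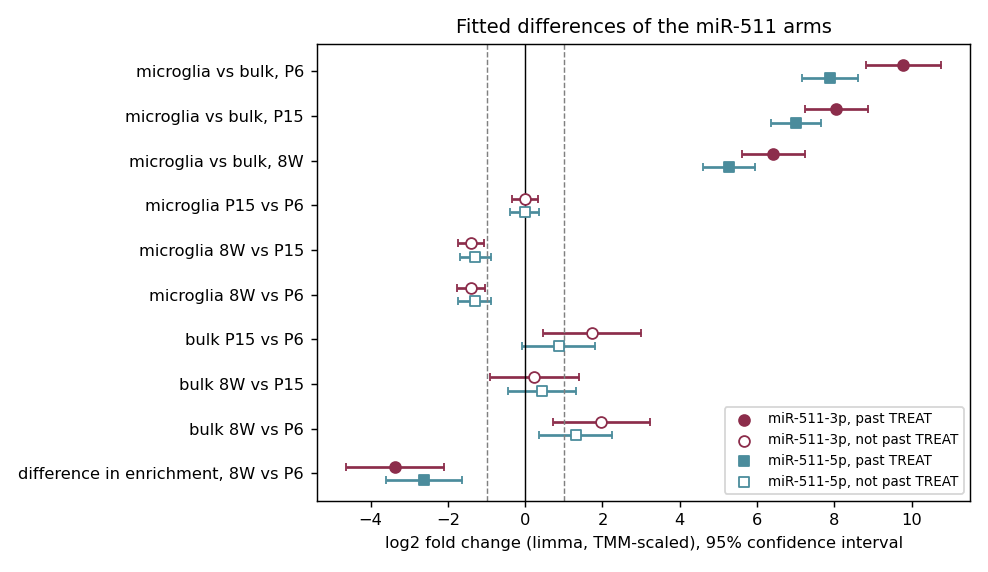
Fitted log2 fold changes of both arms with 95% confidence intervals, for microglia against bulk cells at each age, between ages within a fraction, and for the change in enrichment from P6 to 8 weeks. Filled symbols were past the TREAT threshold and open symbols were not, and dashed lines mark an absolute log2 fold change of 1. Enrichment of miR-511-3p was fitted at 9.79 at P6 and 6.43 at 8 weeks, and the change within microglia at -1.39.

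The next question was how the arms change with age within microglia. Between P6 and P15 there was no detectable difference, at 0.00 ± 0.17 log2 units for the 3p arm (SE, 95% interval -0.34 to 0.34, limma) and -0.01 ± 0.19 for the 5p arm (SE, 95% interval -0.38 to 0.36, limma). From P6 to 8 weeks the fitted difference of miR-511-3p was -1.39 ± 0.18 (SE, 95% interval -1.75 to -1.03, limma), and from P15 to 8 weeks the value was -1.39 ± 0.17 (SE, 95% interval -1.73 to -1.06, limma). For miR-511-5p the values were -1.31 ± 0.21 from P6 and -1.30 ± 0.20 from P15 (SE). None of these was past TREAT, with adjusted p = 0.0921 and 0.174 for the 3p arm and 0.324 and 0.739 for the 5p arm (limma), where 9.42% of features were called lower than at P6 and 2.8% lower than at P15. In limma's moderated test, which asks for a difference from 0 rather than from a log2 fold change of 1, all 4 were past the threshold, with adjusted p = 6.21e-10 and 1.79e-10 for 3p and 3.22e-07 and 1.56e-07 for 5p. In that test 30.3% of features were called lower at 8 weeks than at P6, and 19.5% lower than at P15.

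CPM ranges of both arms at 8 weeks did not overlap with either younger age, as was the case for 13.2% of features lower at 8 weeks than at P6 and 4.85% lower than at P15. That separation from P6 depends on the mouse set aside. The microglial library of P6 female mouse 6 held 67.9 CPM of miR-511-3p and 7.75 CPM of miR-511-5p, below every other P6 library and inside the range of the 8-week libraries. With this mouse included the fitted difference between 8 weeks and P6 was -1.27 for 3p and -1.17 for 5p, and the change in enrichment was -3.06 and -2.55 and still past TREAT (adjusted p = 0.00796 and 0.00932, limma). The comparison with P15 does not use this mouse, but P15 male mouse 1, at 71.9 CPM, was the lowest P15 library, and the next held 105 CPM. Without it the 3p difference between 8 weeks and P15 was -1.50 and past TREAT (adjusted p = 0.0300, limma), against 0.113 to 0.705 when any other mouse was left out.

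The size of this difference depends on the scaling, and so does the separation of the 3p arm from P15. In TMM-scaled log2 CPM, male mice 6 and 2 at 8 weeks, at 6.36 and 6.28, lay above P15 male mouse 1, at 6.22. TMM factors of 8-week microglia had a median of 0.805 against 1.10 at P6, and scaling by library size alone gave -1.85 for the 3p arm and -1.75 for the 5p arm between 8 weeks and P6, both past TREAT (adjusted p = 1.14e-04 and 0.00370, limma). The median of all features moved with it, from -0.17 under TMM to -0.64 under library size alone. Relative to that median miR-511-3p stood at -1.22 under TMM and -1.21 under library size alone.

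Ratios of counts within a library need no scaling. To miR-223-3p, the log2 ratio of miR-511-3p averaged -3.79 ± 0.27 in P6, -3.79 ± 0.25 in P15 and -5.40 ± 0.18 in 8-week microglia (SD). It ran from -4.32 to -3.45 at P6, from -4.42 to -3.43 at P15 and from -5.72 to -5.19 at 8 weeks, so that adults lay apart from both younger ages, which overlapped almost entirely. The difference between 8 weeks and P6 was -1.61 ± 0.10 (SE, permutation p = 1e-05, two-sided, the smallest that 100000 resamples can give, adjusted p = 4e-05 over 12 tests), and that between P15 and P6 was 0.01 ± 0.11 (SE, permutation p = 0.946).

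Against miR-142a-3p and miR-6983-3p the ratio was lower already at P15 than at P6. The medians of miR-511-3p itself at these ages were 164 and 175 CPM. Those of miR-142a-3p were 11460 and 20398 CPM, and those of miR-6983-3p 45.9 and 71.1 CPM. The log2 ratio of miR-511-3p to miR-142a-3p averaged -6.24 ± 0.20 at P6, -6.88 ± 0.27 at P15 and, at 8 weeks, -7.99 ± 0.35 (SD). The ratio to miR-6983-3p averaged 1.94 ± 0.31 at P6, 1.09 ± 0.38 at P15 and -0.17 ± 0.23 at 8 weeks (SD), so that miR-511-3p went from the more to the slightly less abundant of this pair. From P6 to P15 the differences were -0.64 ± 0.10 for miR-142a-3p and -0.86 ± 0.15 for miR-6983-3p (SE, permutation p = 5e-05 and 7e-05, two-sided, adjusted p = 8.57e-05 and 0.000105). From P6 to 8 weeks they were -1.76 ± 0.12 and -2.12 ± 0.12 (SE, permutation p = 1e-05 for both). None of the 8-week libraries overlapped with a younger one in any of the 3 ratios. The 8-week difference was thus larger than the spread between mice against each of these 3 miRNAs, whereas the difference between P6 and P15 passed the test against miR-142a-3p and miR-6983-3p and not against miR-223-3p.

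**Figure D3:**
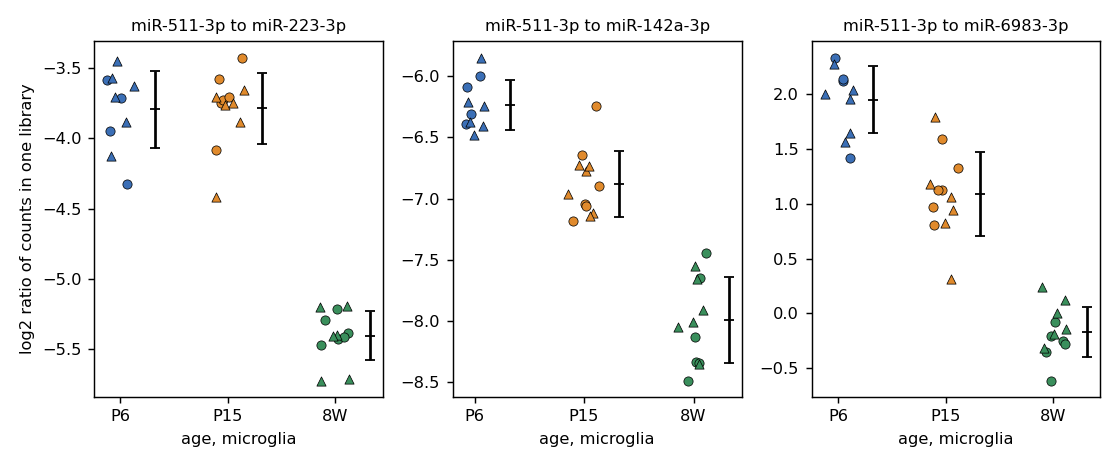
Log2 ratio of the counts of miR-511-3p to those of miR-223-3p, miR-142a-3p and miR-6983-3p in each microglial library, by age. Circles are females, triangles males, and bars the mean and SD over mice. The ratio to miR-223-3p has means of -3.79 at P6 and P15 and -5.40 at 8 weeks, while the other ratios are lower at P15 than at P6 and lower again at 8 weeks.

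In bulk cells miR-511-3p was lowest at P6. Pooled over libraries its level was 0.318 CPM at P6 (95% exact interval 0.202 to 0.477), 0.924 CPM at P15 (0.681 to 1.23) and 0.735 CPM at 8 weeks (0.532 to 0.990). The fitted difference between 8 weeks and P6 was 1.97 ± 0.63 (SE, adjusted p = 0.195 by TREAT and 0.00480 by the moderated test, limma, in which 66.2% of features were called in either direction), and the pooled level was 2.31-fold higher (95% exact interval 1.36 to 4.02). Between P15 and 8 weeks the pooled ratio was 0.796 (0.515 to 1.23), an interval that includes no change. In the fit, the change in enrichment between P6 and 8 weeks was thus made up of -1.39 in microglia and 1.97 in bulk cells. Neither part was past TREAT. The bulk part rests on few counts and on the 0.5 counts added to libraries without one, and the exact intervals cover counting error only. As a share of the microglial level, the pooled bulk level of miR-511-3p came to 0.172% at P6, 0.545% at P15 and 1.47% at 8 weeks. The same share was 0.360%, 0.689% and 0.742% for miR-223-3p and 0.772%, 1.52% and 1.42% for miR-142a-3p. For miR-6983-3p it was 0.538%, 0.959% and 0.551%. Of its 19 bulk counts at P6, 13 came from male mouse 3, and without that mouse the share at P6 was 0.182%. In bulk libraries the summed level of the 4 myeloid markers had medians of 283 CPM at P6 (201 to 344 CPM), 736 CPM at P15 (555 to 904 CPM) and 502 CPM at 8 weeks (301 to 734 CPM), and none of the 4 passed the test between P6 and 8 weeks, with a median difference of 1.20. A longer list of 22 miRNAs known from myeloid cells and macrophages had 21 tested. Of these, 6 were higher in bulk cells at 8 weeks, 1 was lower and 14 did not pass. Their median was 1.17 against 0.32 over all features. The 4 erythroid markers had bulk medians of 1976, 5079 and 4414 CPM at the 3 ages, and 1 of them, miR-451a, was higher at 8 weeks, at 1.58 ± 0.24 (SE). All 3 oligodendrocyte markers were higher in bulk cells at 8 weeks than at P6, by a median of 4.14, with summed medians of 1896, 17458 and 25957 CPM. Of the 5 neuronal markers miR-138-5p was higher, at 1.42 ± 0.13, and of the 2 lymphocyte markers miR-150-5p was higher, at 2.03 ± 0.19, and miR-155-5p lower, at -1.46 ± 0.14 (SE). Neither endothelial marker passed. Among all features 13.2% were called higher and 12.4% lower in bulk cells in this contrast, and the part of these markers in the bulk values of miR-511 was not tested. In cell fractions of this kind, fewer cells of a type and less RNA per cell cannot be told apart.

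Between P6 and 8 weeks, members of 3 other marker lists changed in microglial libraries. Of the 4 mural and fibroblast markers, miR-214-3p and miR-199a-3p were lower at 8 weeks than at P6, at -4.45 ± 0.43 and -2.55 ± 0.12 log2 units (SE, adjusted p = 3.88e-10 and 2.28e-17, limma), and miR-143-3p and miR-145a-5p, at 0.48 ± 0.26 and 0.99 ± 0.27 (SE), did not pass. In bulk cells the same 2 were lower as well, at -4.24 ± 0.37 and -2.93 ± 0.12 (SE), where 12.4% of features were called lower, while miR-145a-5p was higher there, at 1.91 ± 0.27 (SE, adjusted p = 0.00304, limma), and miR-143-3p, at 0.93 ± 0.25 (SE), did not pass. The summed level of the list in microglia had medians of 10370 CPM at P6 (2656 to 13357 CPM), 7824 CPM at P15 (2042 to 13242 CPM) and 9886 CPM at 8 weeks (3492 to 18185 CPM). Of the 3 oligodendrocyte markers, miR-338-3p and miR-219a-2-3p were higher at 8 weeks than at P6, at 1.85 ± 0.13 and 1.63 ± 0.22, and miR-219a-5p, at 1.30 ± 0.22 (SE), did not pass. Their summed level in microglia had medians of 759 CPM at P6 (527 to 1020 CPM), 1456 CPM at P15 (1095 to 3042 CPM) and 1650 CPM at 8 weeks (1275 to 2891 CPM). Of the 2 lymphocyte markers, miR-150-5p was higher, at 2.38 ± 0.21, and miR-155-5p, at 0.59 ± 0.14 (SE), did not pass, and the summed level had medians of 762 CPM (479 to 894 CPM), 1051 CPM (621 to 1528 CPM) and 2356 CPM (1302 to 4970 CPM). In this contrast 7.18% of features were called higher and 9.42% lower. From P6 to P15, where 0.746% of features were called higher and 2.15% lower, 2 of the 4 erythroid markers were higher. They were miR-451a, at 1.95 ± 0.22 (SE, adjusted p = 0.00129, limma), and miR-486a-5p, at 1.76 ± 0.24 (SE, adjusted p = 0.0361, limma), while miR-144-5p and miR-144-3p, at 1.63 ± 0.22 and 1.52 ± 0.23, did not pass. In the same step miR-146a-5p of the 4 myeloid markers and miR-219a-2-3p of the 3 oligodendrocyte markers were higher, at 1.82 ± 0.14 and 1.97 ± 0.22, and miR-214-3p was lower, at -2.37 ± 0.33 (SE). From P15 to 8 weeks, where 1.77% of features were called higher, the 1 marker called was miR-150-5p, at 1.64 ± 0.19 (SE). The part of these cells in the difference of miR-511 between ages was not tested.

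In microglia the sexes did not differ detectably at any age. At P6 the 4 females held 135, 139, 168 and 177 CPM of miR-511-3p, while the 6 males ranged from 135 to 308 CPM with a median of 195 CPM. At P15 the 6 females ranged from 105 to 219 CPM (median 166 CPM) and the 6 males from 71.9 to 264 CPM (median 184 CPM). At 8 weeks females ranged from 37.0 to 52.9 CPM (median 43.6 CPM) and males from 39.3 to 68.4 CPM (median 57.1 CPM). The sexes overlapped at each age. The difference, male minus female, came to 0.29 ± 0.25 at P6, 0.02 ± 0.22 at P15 and 0.26 ± 0.26 at 8 weeks for the 3p arm and 0.17 ± 0.28, 0.01 ± 0.24 and 0.16 ± 0.32 for the 5p arm (SE, adjusted p = 1 for each, limma). The 95% intervals of the 3p differences reached 0.80 at P6, 0.47 at P15 and 0.77 at 8 weeks. Sex was not tested in bulk cells, where at 8 weeks the 6 male libraries held 31 counts of miR-511-3p in all, or 1.01 CPM (95% exact interval 0.687 to 1.44), and the 6 female libraries 12 counts, or 0.431 CPM (0.223 to 0.753). The younger ages ran the other way, with 1.05 CPM in females and 0.735 CPM in males at P15, and 0.401 and 0.259 CPM at P6.

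The balance of the arms was examined next, because both arms come from the same hairpin. The 3p arm made up 89.6% ± 3.02 of the reads of both arms in P6 microglia (SD, n = 10), 89.5% ± 3.72 at P15 (SD, n = 12) and 89.1% ± 3.32 at 8 weeks (SD, n = 12). The share ran from 83.7% to 93.5% at P6, from 80.2% to 94.2% at P15 and from 83.6% to 95.5% at 8 weeks, ranges that overlap almost entirely. Between 8 weeks and P6 it differed by -0.49 ± 1.35 percentage points (SE, permutation p = 0.723, two-sided), between 8 weeks and P15 by -0.40 ± 1.44 (SE, permutation p = 0.788) and between P15 and P6 by -0.09 ± 1.44 (SE, permutation p = 0.955).

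The share varied between mice of an age. The lowest value was that of P15 male mouse 1, at 80.2% of 303 counts (95% exact binomial interval 75.3% to 84.5%), and the highest that of male mouse 6 at 8 weeks, at 95.5% of 310 counts (92.5% to 97.5%). Over the mice of an age, the chi-square of the share per degree of freedom stood at 5.47 at P6, 7.69 at P15 and 3.03 at 8 weeks, where independent reads of a constant share give a value near 1. Separate mice and repeated reads of a molecule can both raise it, and these cannot be told apart. Across the mice of an age the log2 CPM of the arms was only weakly related. Pearson's r was 0.35 at P6 (n = 10, permutation p = 0.315), 0.37 at P15 (n = 12, permutation p = 0.246) and -0.03 at 8 weeks (n = 12, permutation p = 0.928), and Spearman's rho was 0.26, 0.45 and 0.08 (permutation p = 0.470, 0.147 and 0.817). Adjusted over the 3 ages, p was 0.473, 0.473 and 0.928 for r and 0.705, 0.440 and 0.817 for rho. Without the 2 libraries farthest from the median of the 3p arm, r became -0.42 at P6, 0.66 at P15 and, at 8 weeks, 0.30.

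**Figure D4:**
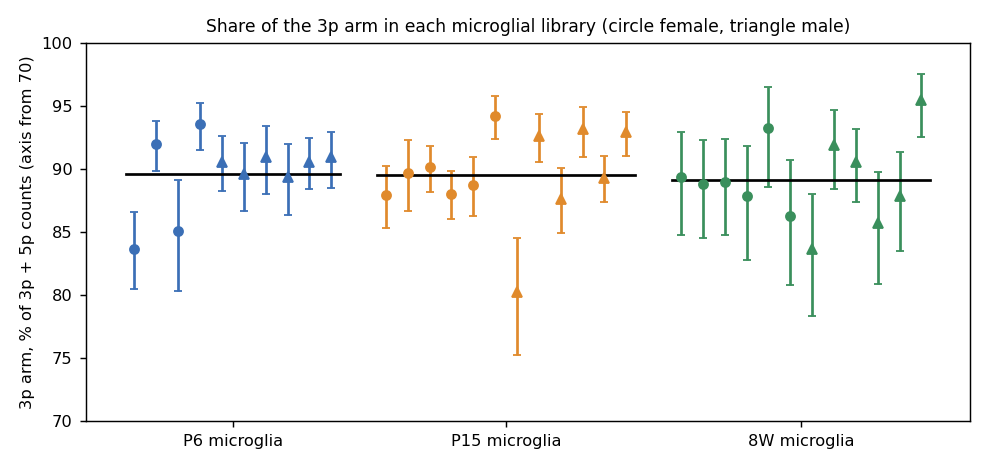
Share of the 3p arm among the counts of both arms in each microglial library, with exact 95% binomial intervals, grouped by age (the axis starts at 70%). Circles are females, triangles males and black lines the mean over mice, which is 89.6% at P6, 89.5% at P15 and 89.1% at 8 weeks.

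Other precursors of the myeloid lists served as a frame for this balance, as a description with no test. The 3p share of miR-6983 was 89.3% ± 4.68, 88.6% ± 3.47 and 88.5% ± 2.10 from P6 to 8 weeks (SD), close to that of miR-511. That of miR-223 was 99.2% ± 0.24 at P6 and 99.4% ± 0.13 at 8 weeks. In miR-142a it went from 91.2% ± 1.07 to 86.1% ± 2.16, and in miR-342 from 88.8% ± 2.38 to 95.3% ± 1.49 (SD). Precursors miR-146a and miR-21a were read almost wholly from the 5p arm, with 3p shares of 0.109% and 0.451% at 8 weeks.

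A list of 22 miRNAs known from myeloid cells and macrophages, with 21 of them tested, placed the age pattern of miR-511 among its kind. In microglia against bulk cells with the ages pooled, 17 were higher, 1 was lower (miR-125a-5p) and 3 did not pass, with a median of 3.25 log2 units against 0.29 over all features, of which 23.3% were called higher and 21.8% lower. From P6 to 8 weeks in microglia, 6 were higher, 1 was lower and 14 did not pass, with a median of 0.71 against -0.17 over all features, where 7.18% of features were called higher and 9.42% lower. Those that rose were miR-146a-5p, a regulator of inflammatory signalling, at 2.97 ± 0.14, its other arm miR-146a-3p at 1.73 ± 0.24, the miR-23a cluster members miR-23a-3p, miR-24-3p and miR-27a-3p at 2.01 ± 0.11, 1.74 ± 0.09 and 1.92 ± 0.12, and miR-342-3p at 1.33 ± 0.13 (SE). The 1 that fell was miR-21a-3p, at -2.10 ± 0.19 (SE, adjusted p = 1.25e-06, limma). The comparators miR-223-3p, miR-142a-3p and miR-6983-3p had fitted differences of 0.20 ± 0.11, 0.38 ± 0.13 and 0.71 ± 0.19 (SE), none of them past the threshold. The fitted values of both miR-511 arms, at -1.39 and -1.31, were lower than those of all listed miRNAs but miR-21a-3p.

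The features whose level was most like that of miR-511-3p over the 34 microglial libraries were ranked by Pearson's r of the log2 CPM, as a description over libraries that share age, sex and preparation. They were miR-130b-3p (r = 0.930), miR-18a-5p (0.896), miR-15b-5p (0.884), miR-19a-3p (0.876) and miR-130b-5p (0.858), and the median over 1071 features was 0.08. The leading one is shown because its pattern was the closest to that of the 3p arm, from chr16:17124071-17124092 on the minus strand of GRCm38.p6.
miR-130b-3p: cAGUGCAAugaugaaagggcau
miR-130b-3p had medians of 980 CPM at P6, 798 CPM at P15 and 93.1 CPM at 8 weeks in microglia, and of 348, 108 and 16.9 CPM in bulk cells, so its median was lower with each age in both fractions, unlike that of miR-511-3p. miR-18a-5p and miR-19a-3p, from the miR-17 to miR-92 cluster known in dividing cells, had medians of 3067 and 425 CPM at P6 and of 766 and 146.4 CPM at 8 weeks in microglia. The features least like it were miR-139-5p (-0.905), miR-139-3p (-0.878) and miR-145b (-0.875).

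The 5p arm was most like miR-34a-5p (r = 0.899), miR-15b-5p (0.874), miR-130b-5p (0.855), miR-130b-3p (0.852) and miR-18a-5p (0.840), so that 4 of these 5 were also among the 5 nearest to the 3p arm. The arms themselves had r = 0.789 with each other, at rank 25 for the 3p arm and rank 9 for the 5p arm. With miR-223-3p, miR-142a-3p and miR-6983-3p, the 3p arm had r = 0.06, 0.24 and 0.01 over all ages.

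**Figure D5:**
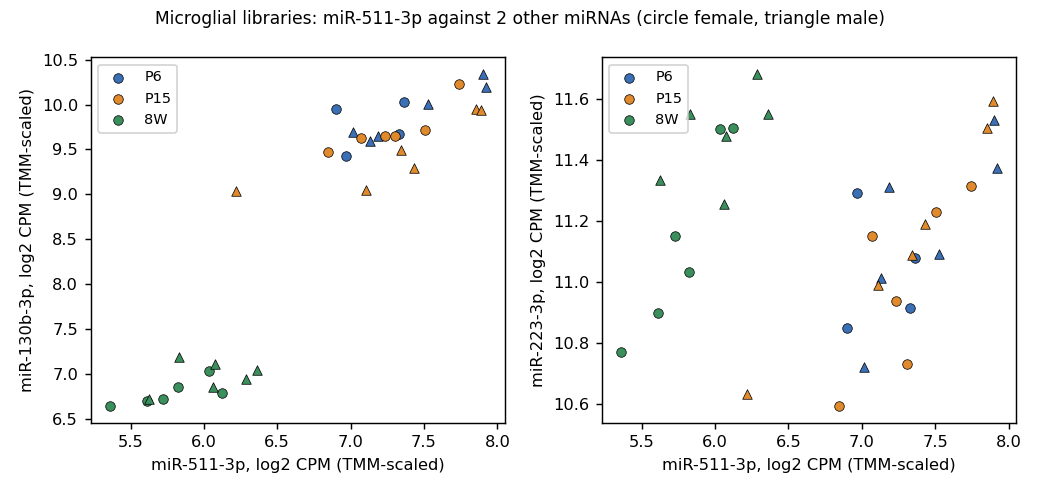
Log2 CPM (TMM-scaled) of miR-511-3p in each of the 34 microglial libraries against that of miR-130b-3p (left) and miR-223-3p (right), coloured by age, with circles for females and triangles for males. Over all ages r is 0.930 with miR-130b-3p and 0.06 with miR-223-3p, while within an age miR-223-3p is higher where miR-511-3p is higher.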

How the data were processed

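Small RNA was sequenced from CD45+ and CD45- cells of the same brains. The deposited values are whole-number read counts per miRNA, not normalised. The authors trimmed reads with fastp 0.20.0 and counted them with miRDeep2 against miRBase and GRCm38. This counter assigns a read to every precursor it matches, so 79 names were listed more than once. The entry with the largest total was kept, and each miR-511 arm had 1 entry. The filter asked for 1 CPM or more in 5 or more libraries and left 1072 features. Analysis used limma 3.58.1 and edgeR 4.0.16 (R 4.3.3) with voom, TMM, TREAT at a log2 fold change of 1 and an FDR of 0.05, after the study's design, and scipy 1.17.1 for intervals. Shares and ratios (0.5 counts added to each arm of a ratio) were compared by permutation tests with 100000 resamples, adjusted over 12 tests. Fits were tested on simulated data. Fractions were paired because both come from 1 animal. Deviations from group means had a mean correlation of 0.07 between fractions of a mouse and -0.02 between mice, and the consensus correlation in the fit was 0.12. No libraries of a group agreed within sampling noise, and the labels name no batch. Mouse 6 of the P6 females was set aside by inference from the study's source data, which remains uncertain. Members, lists and comparators were chosen with earlier results of these data known. Named miRNAs were the 2 arms, comparators, seed relatives, list members, the 5 features most like each arm and the 3 least like the 3p arm, and any other name was added after its values were seen. Alternatives were edgeR's quasi-likelihood test, DESeq2 1.42.0, other scalings, filters and blocks, quality weights, and leaving out each mouse. Summing entries and scaling CPM by TMM were added after the data were seen.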

Additional observations from a re-analysis of the deposited data

Results flagged for a closer look

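The change in enrichment from P6 to 8 weeks was itself past the limma TREAT threshold for both arms, at -3.36 for miR-511-3p and -2.62 for miR-511-5p. For miR-511-5p the bulk side rested on 1 count at P6 and 7 at 8 weeks, and on the 0.5 counts added to the 9 libraries without a count at each age, so its size is uncertain. With edgeR's quasi-likelihood test and with DESeq2 it was -3.42 and -3.51. For miR-511-3p, 6 bulk libraries at P6 and 2 at 8 weeks held no count, so its size is uncertain as well. Enrichment of the 3p arm was 8.91 at P6 and 6.22 at 8 weeks with edgeR, and 9.06 and 6.32 with DESeq2. In limma the values were 9.79 and 6.43.

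Data outside the comparisons also held both arms. The microglial library of the mouse set aside, P6 female mouse 6, had 67.9 CPM of miR-511-3p and 7.75 CPM of miR-511-5p, from 368 and 42 counts, above the 7 and 0 counts in its bulk library.

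In 3 of 23 groups of 4 to 10 libraries, 1 library stood apart from the rest of its group by Dixon's test, which flags about 1 in 20 groups by chance where values vary continuously. Among 8-week female microglia, mouse 5 had 2.83 CPM of miR-511-5p, from 12 counts, and the next had 5.22 CPM. Among P15 females, mouse 6 had a 3p share of 94.2%, and the next had 90.1%. Among P6 bulk libraries, female mouse 3 had 0.137 CPM of miR-511-5p, a single count, where the other 9 had none. Any count in 1 library meets this test when the rest of its group is at 0, so the last case carries no information.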

How the results depend on the processing

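Enrichment of both arms, pooled and at each age, and the change in enrichment from P6 to 8 weeks kept their direction and stayed called under all alternatives run. Of these, edgeR, DESeq2 and the fit without a fold threshold test for a difference from 0. The pooled 3p value lay between 7.63 and 8.18. The pooled 5p value was 7.24 with edgeR, 7.55 with DESeq2 and 6.56 with quality weights. Pooled enrichment was 8.09 for 3p and 6.72 for 5p without the replicate block, and 7.96 and 6.69 with mouse as a fixed replicate block, and the block changed no call. The difference in microglia did not pass TREAT. Without a fold threshold it was called for 3p (-1.39 from either age) and 5p (-1.30 from P15, -1.31 from P6), as were the bulk differences of 3p (1.73 for P15 against P6, 1.97 for 8 weeks against P6) and 5p (1.31 for 8 weeks against P6) and the differences in enrichment of 3p between neighbouring ages (-1.73 and -1.63) and of 5p from P15 to 8 weeks (-1.74). The edgeR test, which has no fold threshold either, called it at -1.43 from P15 and -1.39 from P6 for 3p and -1.34 from both for 5p, bulk 8 weeks against P6 at 1.29 for 3p and 2.08 for 5p, and the 3p difference in enrichment from P15 to 8 weeks at -1.53. DESeq2, also without one, called -1.47 and -1.41 for 3p, -1.38 and -1.36 for 5p, bulk 3p at 1.38 (P15 against P6) and 1.32 (8 weeks against P6), bulk 5p at 2.15, and the 3p difference in enrichment at -1.32 from P6 to P15 and -1.41 from P15 to 8 weeks. The bulk 5p calls of these 3 tests rest on 1 count at P6, 5 at P15 and 7 at 8 weeks. Bulk libraries without a 5p count entered the limma fit at medians of -3.88 log2 CPM at P6 and -2.97 at 8 weeks. These calls are therefore not read as a change in bulk cells. For the difference in microglia, library size alone called -1.72 and -1.85 for 3p and -1.63 and -1.75 for 5p, summed entries -1.48 from both ages for 3p, and quality weights -1.40 for 3p from P6. Differences near 0 changed sign. For P15 against P6 in microglia, 3p was -0.13 with library size alone, -0.066 with the stricter filter and -0.0011 with summed entries, and 5p was 0.0019 with edgeR, 0.025 with DESeq2, 0.017 with DESeq2 size factors, 0.015 without a filter and 0.13 with mouse 6 included. For 8 weeks against P15 in bulk cells, 3p was -0.059 with DESeq2 and -0.25 with library size alone, and 5p -0.031 with library size alone. The P15 sex difference with quality weights was -0.00031 for 3p and -0.093 for 5p. Leaving out each mouse, the 3p difference between 8 weeks and P15 in microglia ranged from -1.50, without P15 male mouse 1, to -1.25. In 18 of these 34 fits TMM took another reference library than with all mice. P15 against P6 in microglia ranged from -0.046 to 0.11 for 3p and -0.11 to 0.11 for 5p, bulk 3p from P15 to 8 weeks from -0.057 to 0.42, the P15 sex difference from -0.10 to 0.23 for 3p and -0.17 to 0.17 for 5p, the 5p sex difference from -0.065 to 0.39 at P6 and -0.0067 to 0.32 at 8 weeks, and the ratio to miR-223-3p between P15 and P6 from -0.051 to 0.065. The 3p share ranged from -0.75 to 0.76 percentage points for P15 against P6, -1.25 to 0.10 for 8 weeks against P15 and -1.15 to 0.015 for 8 weeks against P6. Scaled by TMM, the 8-week 3p level was 61.1 CPM, and with entries summed mean levels from P6 to 8 weeks were 111, 108 and 31.5 CPM for 3p and 12.5, 11.9 and 3.74 CPM for 5p. Apart from the thresholds and totals that these settings change by construction, the cause of these shifts was not tested. Depth limits the bulk values, where most libraries held 3 counts or fewer of either arm.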

Other observations

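After the mean of each age and sex was taken from the log2 CPM, the features most like the 3p arm over the 34 microglial libraries were miR-500-3p (r = 0.853), miR-140-3p (0.850), miR-542-3p (0.815), miR-503-5p (0.814) and miR-542-5p (0.812), and miR-223-3p stood at rank 8 (0.789). Both miR-142a-3p (0.658) and miR-6983-3p (0.665) lay far above the median of -0.01 over 1071 features, whereas the erythroid miR-451a, at 0.103, did not. With miR-223-3p the r within an age was 0.659 in P6, 0.854 in P15 and 0.821 in 8-week libraries, although it was 0.06 over all ages. With miR-130b-3p the r was 0.930 over all ages, 0.777 in the deviations, and 0.797, 0.780 and 0.628 within P6, P15 and 8-week libraries. The features least like the 3p arm in this measure were miR-100-5p (-0.811), miR-99b-5p (-0.804) and miR-151-5p (-0.783). These names were chosen after their values were seen, and the values are a description over libraries that share scaling and preparation, with no test.

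Over mice, the log2 CPM of miR-511-3p had an SD of 0.45 in P6, 0.52 in P15 and 0.29 in 8-week microglia, while the SD of its log2 ratio to miR-223-3p was 0.27, 0.25 and 0.18. For the ratio to miR-142a-3p it was 0.20, 0.27 and 0.35, above that of the level at 8 weeks. For the ratio to miR-6983-3p it was 0.31, 0.38 and 0.23. For the 5p arm the most alike feature in deviations was miR-34a-5p (0.744), and its r with miR-511-3p was 0.222.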
